A study of Mus musculus with 27 samples.

Results

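RNA of neutrophils sorted by flow cytometry out of mammary tumours was compared between mice given cisplatin plus an antibody against CSF-1R, called the combination here, and mice given a control antibody. The 4 combination and 4 control libraries were taken by their titles and are 8 of 27 libraries in all; the others are 3 neutrophil libraries of cisplatin with control antibody, 4 of anti-CSF-1R alone, and 12 macrophage libraries. All mice were K14cre;Cdh1F/F;Trp53F/F, in which Cre under the keratin 14 promoter deletes E-cadherin and p53 in epithelium, so that mammary tumours arise without transplantation. Keratin 14 is an epithelial promoter and both groups carry the same alleles, so the deleted genes give no check of the labels in neutrophils. Combination mice were killed 1 day after their second cisplatin dose, control mice once the tumour measured 100 mm2. The comparison therefore sets 2 drugs and a different endpoint against the control antibody, and these cannot be told apart. The labels do not tell whether each library is a mouse of its own, and the p-values thus speak only to the spread among these libraries, which could be technical.

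Neutrophils are short-lived granulocytes that leave the bone marrow under G-CSF and follow CXCR2 ligands into tissue. CSF-1R, the receptor for CSF-1 and IL-34, keeps tumour macrophages alive, and its blockade removes many of them. Interferons bind receptors on nearly every cell and switch on a shared programme: the type I receptor acts mainly through the factor ISGF3 at interferon-stimulated response elements, and interferon-gamma mainly at gamma-activated sites. Cisplatin crosslinks DNA, and in many cell types this activates the p53 target genes.

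The table lists 9996 genes as read counts divided by a size factor, called the value below. Values below 1000 could have lost their decimal point when the table was made, and in the 8 libraries 90.5% of the cells of the table have a form that allows this. The point was put back where it gave a whole number of reads, and a count model of each gene over the groups chose among several such places, which 67.9% of cells had. The 7.06% of cells that stayed ambiguous were left out, and where a value is missing below, that is the reason. A value of 1 is the lowest listed. Fold changes are differences of log2(value + 1), combination minus control, with standard errors (SE) from limma. Libraries held 1015823 to 3282079 reads over the listed genes in the combination and 1086068 to 2111683 in controls, and replicates correlated across genes at 0.948 to 0.968 in the combination and 0.959 to 0.971 in controls. On the first principal component of the 15 neutrophil libraries (24% of the variance), combination library 2 stood at 37.1 and the other combination libraries at -1.06 to 2.88, against -16.6 to -8.95 in controls. Medians of several lists are also given without that library below (with cisplatin library 2, at 24 on the same component, left out too).

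The sorted cells carried neutrophil genes. Csf3r, the G-CSF receptor, was at 7304, 12863, 9702 and 8349 in the combination and at 5039, 6779, 7532 and 7895 in controls. Cxcr2, the receptor for neutrophil-attracting CXC chemokines, was at 6487, 12395, 7337 and 5834 in the combination, all above the control values of 3069, 3724, 3495 and 5420. Its log2 fold change was 1.0 ± 0.33 (SE), short of the threshold in limma (adjusted p = 0.178). Csf1r itself, the target of the antibody, was at 962, 606, 1248 and 945 in combination neutrophils and at 1217, 1135, 1349 and 1041 in control neutrophils, with groups that overlapped and a log2 fold change of -0.37 (adjusted p = 0.543). In this bulk RNA fewer cells of a type and less RNA per cell cannot be told apart.

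Of 9119 genes tested, 12 passed an adjusted p of 0.05 (0.132%): 10 were higher in the combination (0.11%) and 2 were lower (0.0219%). At an unadjusted p under 0.05, 756 genes were higher (8.29%) and 519 lower (5.69%), and the median log2 fold change of all genes was 0.02. Of the 9119 genes, 4744 had a positive log2 fold change. These shares are the background for the counts of the lists below. Most of the 10 higher genes belong to the interferon response or to antigen presentation. Irgm2 passed by a wide margin, with an adjusted p of 1.12e-06, and the other 11 lay just under the threshold, between 0.044 and 0.0456.

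The number of genes that passed depended on how the decimal points were put back, while the direction of the 12 did not. A first decoding model with preset weights for the group spreads gave 108 genes, but it was replaced after its calls had been seen, because it had moved whole groups of some genes 10-fold off the others. Decoding without the groups left 1 gene, Irgm2. The main decoding model knows the groups that limma then compares, so the limma p-values given here are not strictly exact. All 12 kept their sign and an unadjusted p under 0.05 without the groups, and all 12 were also among the 108. They had been picked for a small p in the same libraries, so this is no independent support. Each of the 8 libraries moved the count: it was 60 without combination library 3 and 97 without control library 4, and 1 to 3 without any other.

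**Figure D1:**
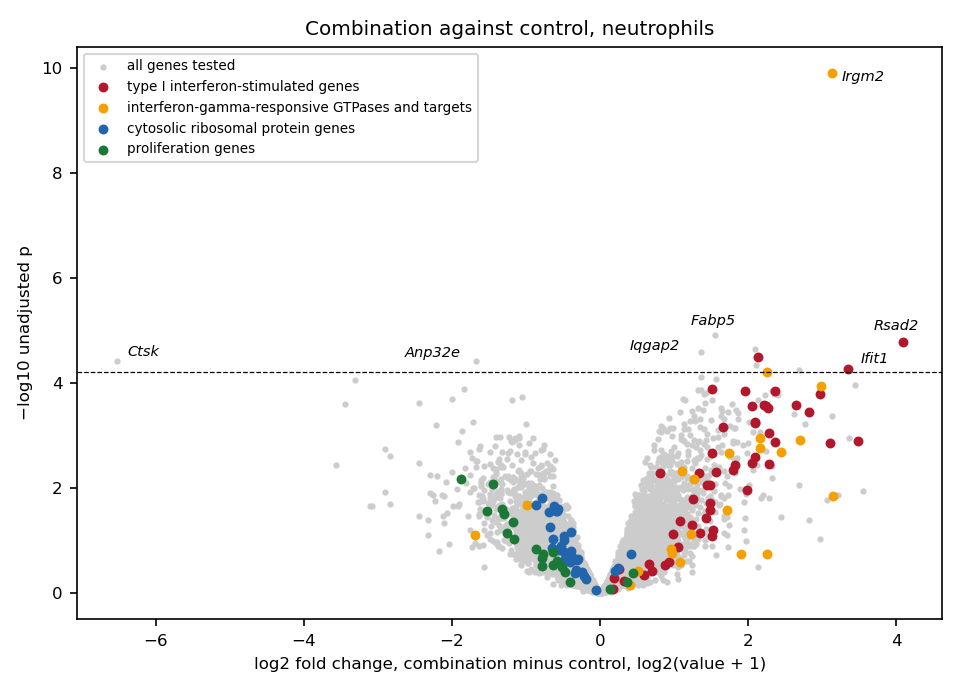
Each point is 1 of 9119 genes, with the log2 fold change (combination minus control) on the x axis and −log10 of the unadjusted p on the y axis; colours mark 4 gene lists, and the dashed line marks the largest p among the 12 genes that passed. Irgm2 stands alone at the top, type I interferon-stimulated genes lie to the right of 0, and ribosomal protein and proliferation genes lie mostly to the left.

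The 3 promoters printed here belong to the 3 genes that passed higher and hold an interferon-type element in this window, and were chosen for that match. Each is the 250 bases before the start of the gene as RefSeq gives it on GRCm38.p6, written 5′ to 3′ on the gene's strand. Irgm2 lies on the plus strand (chr11:58214727-58214976), Rsad2 on the minus strand (chr12:26456453-26456702) and Ifit1 on the plus strand (chr19:34640639-34640888). Gene positions further below are from GENCODE, whose starts differ for Irgm2 and Ifit1. By those, the Irgm2 window lies inside the gene and the Ifit1 window runs past the start of its gene. Capitals mark GAAANNGAAA or its other strand TTTCNNTTTC, the core of an interferon-stimulated response element (ISRE), and, in Irgm2 alone, also TTCNNNGAA, the letters of a gamma-activated site (GAS), which read alike on both strands.
Irgm2: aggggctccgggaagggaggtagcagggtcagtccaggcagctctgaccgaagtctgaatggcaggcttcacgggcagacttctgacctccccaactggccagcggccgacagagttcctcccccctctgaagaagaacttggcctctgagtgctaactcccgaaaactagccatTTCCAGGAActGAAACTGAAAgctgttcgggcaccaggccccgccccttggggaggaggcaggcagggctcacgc
Rsad2: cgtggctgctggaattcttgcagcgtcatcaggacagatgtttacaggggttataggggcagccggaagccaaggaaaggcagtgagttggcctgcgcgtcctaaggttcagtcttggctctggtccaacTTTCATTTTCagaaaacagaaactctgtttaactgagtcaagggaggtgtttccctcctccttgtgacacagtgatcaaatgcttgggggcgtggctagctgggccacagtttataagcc
Ifit1: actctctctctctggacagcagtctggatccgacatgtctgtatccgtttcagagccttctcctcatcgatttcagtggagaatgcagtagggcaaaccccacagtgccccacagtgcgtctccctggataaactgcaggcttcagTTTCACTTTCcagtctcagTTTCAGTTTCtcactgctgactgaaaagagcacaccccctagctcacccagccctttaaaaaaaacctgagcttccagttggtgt

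In Irgm2 the GAS letters TTCCAGGAA begin 75 bases before the start and the ISRE letters GAAACTGAAA begin 64 bases before it, without overlap. Rsad2 holds TTTCATTTTC at 120 bases before its start. Ifit1 holds TTTCACTTTC and TTTCAGTTTC, at 104 and 85 bases before its start. Of 32851 mouse promoters of the same length, 978 (2.98%) hold the ISRE letters and 2306 (7.02%) the GAS letters. Among tested genes with a promoter, 247 of 6987 (3.54%) hold the ISRE letters and 512 (7.33%) the GAS letters. The ISRE letters stood in 15 of 40 type I interferon-stimulated genes (37.5%) and in 11 of 13 interferon-gamma-responsive genes (84.6%) that could be matched. Of the 7 matched genes that passed higher, 3 had them (42.9%). The GAS letters stood in 5 of the same 40 (12.5%), 6 of the 13 (46.2%) and 1 of the 7 (14.3%). A match describes the letters and not a bound site.

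Irgm2, an immunity-related GTPase that marks vacuoles of intracellular pathogens (chromosome 11, 58199618 to 58222782, plus strand), was at 781, 792, 549 and 668 in the combination and at 110, 62.1, 87 and 62 in controls. The lowest combination library was 549 and the highest control 110, so the groups were far apart. Its log2 fold change was 3.13 ± 0.24 (SE), and it stayed past the threshold without any 1 of the 8 libraries, with 3.02 to 3.29.

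Rsad2, which encodes viperin, an antiviral radical SAM enzyme (chromosome 12, 26442746 to 26456452, minus strand), reached 5250, 13001, 3386 and 5200 in the combination, against 717, 115, 104 and 1614 in controls. Every combination library was above every control, but controls 1 and 4 stood well above controls 2 and 3. The log2 fold change was 4.09 ± 0.69 (SE, adjusted p = 0.044). Ifit1, which binds foreign 5′ ends of RNA (chromosome 19, 34640871 to 34650009, plus strand), was at 1962, 2940, 1563 and 1614 in the combination. Only control library 1 could be decoded for Ifit1, at 191, so the fold change of 3.35 ± 0.57 (SE, adjusted p = 0.0456) takes its spread from the other groups.

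Ddx58, the gene of the RNA sensor RIG-I (chromosome 4, 40203773 to 40239828, minus strand), was at 775, 1224, 622 and 656 in the combination and 170, 124, 124 and 413 in controls. Control library 4 was again the highest control, yet below all combination libraries, and the log2 fold change was 2.11 ± 0.38 (SE, adjusted p = 0.0454). Mnda, an interferon-inducible p200 family gene with a pyrin domain, was low in all libraries, at 43.6, 32.9, 21.2 and 30.9 in the combination and 5.92, 7.39, 5.55 and 6.48 in controls. These few reads still separated the groups, with a log2 fold change of 2.14 (adjusted p = 0.044). Il18bp encodes the secreted decoy that neutralises IL-18 and is induced by interferon-gamma (chromosome 7, 102014885 to 102018690, minus strand). It stood at 168, 453, 173 and 314 in the combination and at 38.5 and 38.4 in the 2 controls that could be decoded (log2 fold change 2.69 ± 0.49 SE, adjusted p = 0.0456). Those were control libraries 1 and 2, so control library 4, the highest control for Rsad2 and Ddx58, is missing from this fold change.

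Gbp9, a guanylate-binding protein gene (chromosome 5, 105077630 to 105139539, minus strand), was at 844, 1791, 364 and 960 in the combination and 191, 126, 109 and 372 in controls. Combination library 3 lay just under control library 4, so the groups overlapped, although the gene passed (log2 fold change 2.26 ± 0.43 SE, adjusted p = 0.0456). Gbp9 shares its locus and strand with Gbp4, so reads of the 2 could be split by the counting and both are uncertain.

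**Figure D2:**
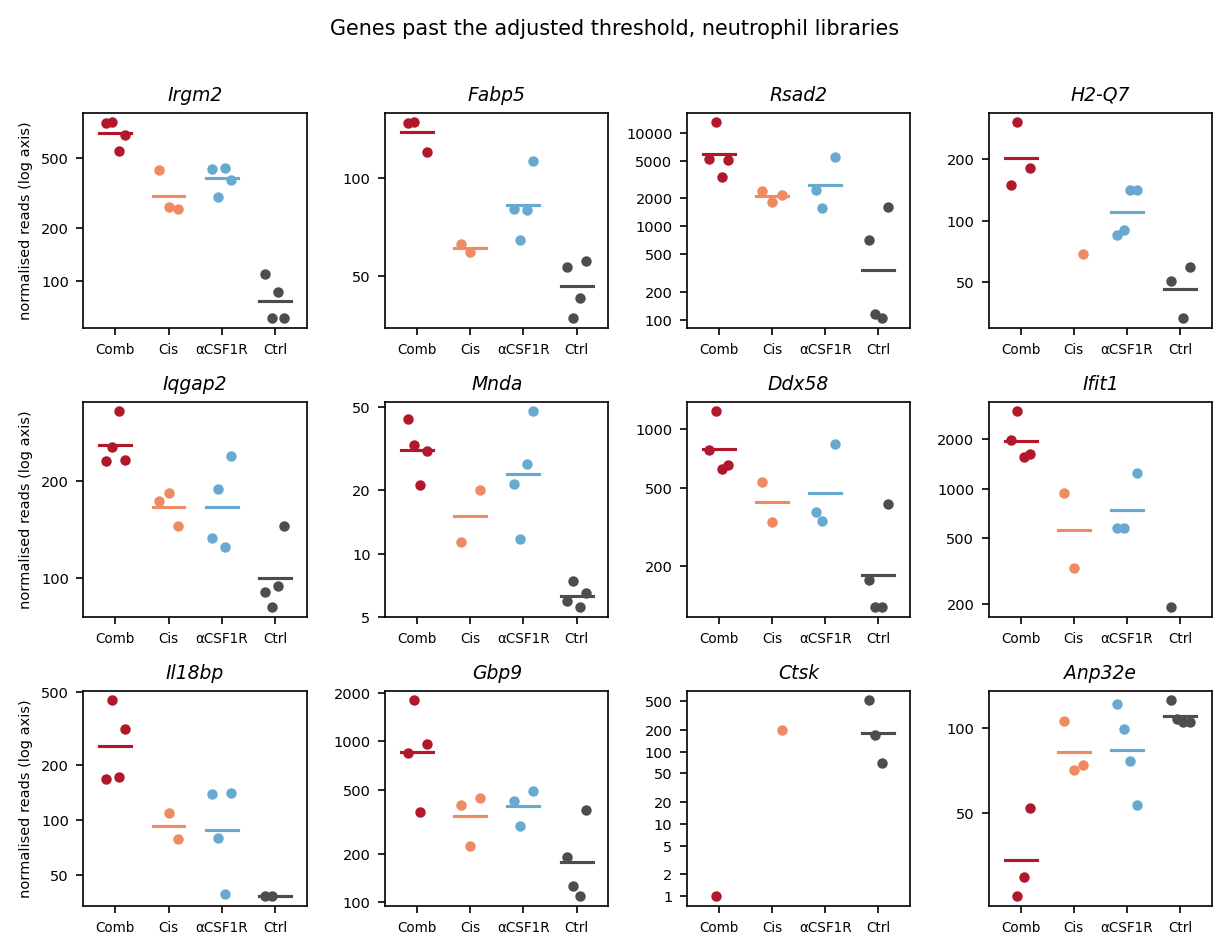
Values (normalised reads, log axis) of the 12 genes past the threshold in each neutrophil library, in the order combination, cisplatin, anti-CSF-1R and control; lines are means on the log2(value + 1) scale, and libraries whose value could not be decoded have no point. Irgm2 was at 549 to 792 in the combination and 62 to 110 in controls, and in every higher gene but Gbp9 the decoded combination points lie above the decoded control points.

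Of the 56 type I interferon-stimulated genes listed for this report, 52 could be tested. All 52 had a positive log2 fold change, beside 4744 of 9119 genes, with a median of 1.55 against 0.02 over all genes. Of the 52, 28 were decoded in at least 3 libraries of each group, and the fold changes of the others rest on fewer libraries. Control library 4, the highest control of the list, was among those missing for Ifit1 and Adar. Rsad2, Ifit1 and Mnda passed. At an unadjusted p under 0.05, 37 of the 52 were higher and none was lower, beside 8.29% and 5.69% of all genes. The median was 1.51 when decoded without the groups and 1.52 without combination library 2 and cisplatin library 2, and it ranged from 1.41 to 2.15 over the other settings, except 2.23 with the smallest whole-read place. With the preset weights 18 of the 52 passed. As a mean log2 deviation, the level of the list was 1.09, 1.25, 0.32 and 0.84 in combination libraries, against -0.96, -1.73, -1.48 and 0.02 in controls. Combination library 3 was the lowest of its group and control library 4 the highest of its own.

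Other members of the list did not pass. Adar, which edits double-stranded RNA, was at 295, 296, 225 and 234 in the combination and 111, 78.3 and 85.1 in the 3 decoded controls (1.52, adjusted p = 0.0517). Its decoded groups did not overlap, but control library 4, the control with the highest level of the list, could not be decoded. Ifit3, of the same family as Ifit1, was at 538, 862, 407 and 417 in the combination and at 56.3 and 209 in the 2 decoded controls (log2 fold change 2.27, adjusted p = 0.0565). Ifit2 had 2 decoded libraries a group, 1865 and 1010 in the combination and 38.4 and 378 in controls (3.49, adjusted p = 0.0946). Isg15, a ubiquitin-like protein joined to target proteins, stood at 991, 1859, 738 and 1441 in the combination and at 295 and 832 in the 2 decoded controls. The groups overlapped there, and the log2 fold change was 1.25 (adjusted p = 0.361).

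Among the 26 interferon sensors and signalling factors, Ddx58 passed and 13 were higher at an unadjusted p under 0.05, none lower, with a median of 0.84. Irf2, a factor that occupies interferon response elements, was at 272, 438, 269 and 307 against 107, 93.1, 139 and 160 in controls (1.36, adjusted p = 0.0517). All combination libraries of Irf2 lay above all controls. Ifih1, the RNA sensor MDA5, was at 656 to 1090 in the combination and at 150 and 422 in the 2 decoded controls (1.67, adjusted p = 0.0879).

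Irf7, which amplifies type I interferon production, was at 549, 633, 385 and 460 in the combination, above the 2 decoded controls at 97.7 and 300 (1.53, adjusted p = 0.157).

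The 23 interferon-gamma-responsive GTPases and targets gave 22 tested genes with a median of 1.73, or 1.59 without combination library 2 and cisplatin library 2. Of the 22, 9 were decoded in at least 3 libraries of each group. Irgm2 and Gbp9 passed, and at an unadjusted p under 0.05 12 were higher and 1 lower. Gbp2 was at 1553, 3577, 946 and 2544 in the combination and 145, 188, 118 and 1032 in controls (2.99, adjusted p = 0.0517). Control library 4 alone put the Gbp2 groups in overlap. Gvin1, a very large interferon-inducible GTPase, was at 1222, 2551, 825 and 1367 in the combination and at 215 and 436 in the 2 decoded controls (2.16, adjusted p = 0.0929). The level of the list was 0.86, 1.42, -0.14 and 1.31 in combination libraries and -1.18, -1.32, -1.40 and 0.28 in controls, so that control library 4 lay above combination library 3.

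**Figure D3:**
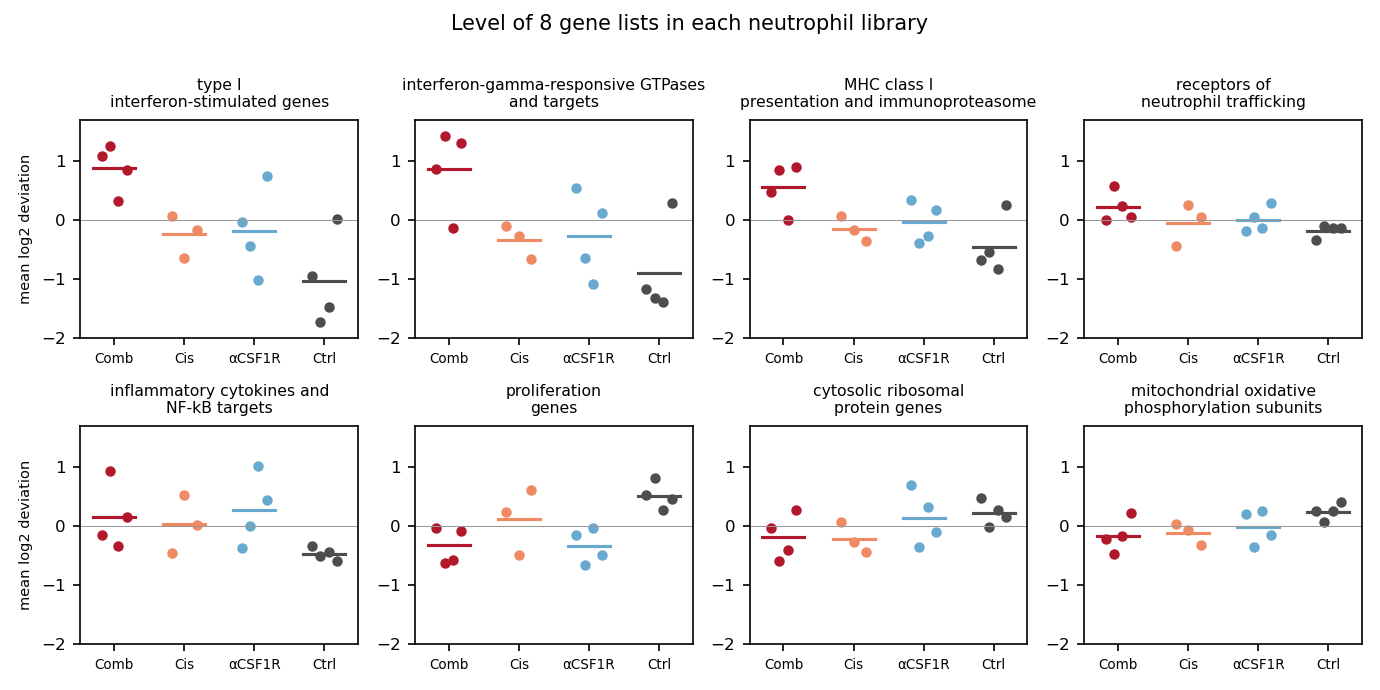
Each point is 1 neutrophil library and shows the mean log2 deviation of the tested members of a list from their mean over the 15 neutrophil libraries, with groups in the order combination, cisplatin, anti-CSF-1R and control and a line at the group mean. For type I interferon-stimulated genes the combination libraries lie at 0.32 to 1.25 and the controls at -1.73 to 0.02.

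Genes that load and carry peptides on MHC class I mostly had positive fold changes. Of 19 tested of 20, H2-Q7 passed, 13 were higher and 1 lower at an unadjusted p under 0.05, and the median was 0.89. H2-Q7, a nonclassical class I heavy chain (chromosome 17, 35439155 to 35443773, plus strand), was at 150, 304 and 181 in the 3 decoded combination libraries and 50.4, 33.3 and 59.2 in the 3 decoded controls. No value overlapped (2.10 ± 0.34 SE, adjusted p = 0.044), but the Q-region genes are near-identical copies and may share reads. H2-Q4, of the same family, was at 195, 320, 163 and 213 against 93.3, 69.5, 61.1 and 134 in controls (1.33, adjusted p = 0.0517).

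B2m, the light chain of all class I molecules, is among the most abundant of these transcripts. It was at 12776, 20343, 11912 and 18270 in the combination and 4883, 4726, 7183 and 9550 in controls, without overlap (1.29 ± 0.31 SE, adjusted p = 0.0721). H2-M3, which presents N-formylated peptides, was at 56.1, 44.5 and 54.2 in the 3 decoded combination libraries and 20.7, 13.3, 13 and 15.7 in controls (1.67, adjusted p = 0.0698).

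None of 16 tested of 20 T cell chemokines and costimulatory genes passed in limma, and 9 of the 16 were decoded in at least 3 libraries of each group. At an unadjusted p under 0.05, 5 were higher and 0 lower, with a median of 0.82, or 0.58 with both libraries 2 left out. Cxcl10, a CXCR3 ligand, was at 451, 947, 528 and 988 in the combination and at 105 and 401 in the 2 decoded controls (1.74, adjusted p = 0.116). Cd274, which encodes PD-L1, was at 2683, 5946, 3810 and 4477 in the combination and 1339, 1162, 2694 and 2978 in controls. Combination library 1 lay within the control range there (1.11 ± 0.34 SE, adjusted p = 0.157). Ccl5 was at 33.3, 19.6 and 53.5 in the decoded combination libraries and at 7.41 in the only decoded control (2.01, adjusted p = 0.196).

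Outside the interferon and MHC class I lists, Fabp5, Iqgap2 and Il18bp, described above, passed as higher. Fabp5, a fatty acid-binding protein (chromosome 3, 10012548 to 10016607, plus strand), was at 148, 149 and 121 in the 3 decoded combination libraries and 53.3, 37, 42.6 and 55.5 in controls. The groups were tight and apart (1.56 ± 0.25 SE, adjusted p = 0.044). Iqgap2, a scaffold of the actin cytoskeleton (chromosome 13, 95627177 to 95891922, minus strand), was at 231, 254, 328 and 232 in the combination and 90.3, 81.3, 94.4 and 145 in controls (1.36 ± 0.24 SE, adjusted p = 0.044).

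The 2 genes that passed as lower were Anp32e and Ctsk, and the call for Ctsk rests on 1 combination library at the lowest listed value. Anp32e, a histone chaperone that removes the variant H2A.Z (chromosome 3, 95929246 to 95947390, plus strand), was at 25.2, 29.4 and 52.2 in the 3 decoded combination libraries and 126, 108, 105 and 105 in controls (-1.68 ± 0.31 SE, adjusted p = 0.044). The controls lay within a narrow band, and all combination values were below it. Ctsk encodes cathepsin K, the collagen-degrading protease of osteoclasts (chromosome 3, 95499256 to 95509362, plus strand). It passed with an adjusted p of 0.044, but in the combination only library 2 could be decoded, where it is listed at 1, against 512, 170 and 70.3 in the 3 decoded controls. Its fold change depends on the pseudocount and on that 1 library and is not given. Ctsk and Il18bp fell outside the rule for named genes and were named after their values were seen.

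A few more genes were lower in every decoded combination library without passing. Acp5, tartrate-resistant acid phosphatase, another osteoclast and macrophage enzyme, was at 99.8, 50.4, 168 and 163 in the combination and 668, 259, 331 and 395 in controls (-1.83 ± 0.36 SE, adjusted p = 0.0517). Fcrls, an Fc receptor-like gene, is listed at 1 in all 4 combination libraries and at 28.1, 19.2, 5.55 and 38.9 in controls (adjusted p = 0.0517). Vdac1, the main pore of the outer mitochondrial membrane, was at 56.1, 29, 40.8 and 59 in the combination and 96.3, 90.2, 94.4 and 93.5 in controls (-1.05, adjusted p = 0.0525). Cltb, a clathrin light chain, was at 8.31, 3.87 and 4.8 in the 3 decoded combination libraries and 20.7, 22.2, 29.6 and 26.8 in controls (-2.0, adjusted p = 0.0525).

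Genes of migration and adhesion showed smaller differences. Of 33 tested receptors of neutrophil trafficking none passed in limma, 7 were higher and 1 lower at an unadjusted p under 0.05, and the median was 0.45, or 0.32 with both libraries 2 left out. Itgax, the integrin CD11c, was lower in every combination library, with 453, 331, 648 and 627 in the combination and 792, 955, 1332 and 1191 in controls (-1.07 ± 0.34 SE, adjusted p = 0.166).

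Myeloid survival and death genes had a median of 0.44 over 29 tested, with 8 higher and 0 lower at an unadjusted p under 0.05, and none passed in limma. Bid, which links death receptors to mitochondria, was at 76.9, 73.6, 96.4 and 54.9 in the combination and 25.2, 20.7, 33.3 and 31.5 in controls (1.41 ± 0.30 SE, adjusted p = 0.0517). Casp8, the initiator caspase that cleaves Bid, was at 341, 730, 273 and 335 against 176, 174, 174 and 237 in controls (1.04, adjusted p = 0.139). Casp1, the inflammasome caspase, was at 110, 192, 73.5 and 161 against 26.7, 39.9, 66.6 and 90.7 in controls, where groups overlapped (1.30, adjusted p = 0.172). The groups of Bid and Casp8 did not overlap, but both genes were named for their small p, so this adds no support of its own.

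Inflammatory cytokines and NF-kB targets, 35 tested, had a median of 0.57 and no gene past the threshold in limma, with 8 higher and 1 lower at an unadjusted p under 0.05. With both libraries 2 left out the median was 0.38. Combination library 2 stood apart in this list, at 0.93, against -0.16, -0.34 and 0.16 in the other combination libraries and -0.60 to -0.34 in controls. Il1b, the leading cytokine transcript, was at 67729 in that library, at 17099, 16451 and 20066 in the other combination libraries, and at 15053, 17128, 11527 and 15255 in controls (0.77, adjusted p = 0.481). Nfkbia, the NF-kB inhibitor that is itself an NF-kB target, was at 1883, 4789, 1924 and 2242 in the combination, all above the controls at 1361, 1265, 1210 and 1574 (0.89, adjusted p = 0.214). Csf1, a ligand of the blocked receptor, was at 1166, 4429, 1882 and 2256 against 779, 1248, 1027 and 1098 in controls, with overlap (1.08 ± 0.32 SE, adjusted p = 0.14). Ccl2, which attracts monocytes, was at 314 and 130 in the 2 decoded combination libraries and at 68.1, 60.6, 70.3 and 43.5 in controls (1.74, adjusted p = 0.199).

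Granule and calgranulin genes showed differences within their spread. Specific and gelatinase granule genes, 23 tested, had a median of 0.36 (0.23 with both libraries 2 left out) with 0 higher and 0 lower at an unadjusted p under 0.05 and none past the threshold in limma. S100a8 and S100a9, the subunits of calprotectin, were at 7004 to 21187 and 12872 to 42818 in the combination and at 4006 to 9738 and 9302 to 16271 in controls. Their log2 fold changes were 1.09 (adjusted p = 0.326) and 0.93 (adjusted p = 0.392). Mmp8, neutrophil collagenase, was at 353, 1607, 394 and 415 against 107, 176, 581 and 265 in controls (1.25, adjusted p = 0.4). Combination library 2 was highest for all 3.

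Pro-tumour and immunosuppressive neutrophil genes had a median of 0.50 over 29 tested, 7 of them higher and 1 lower at an unadjusted p under 0.05, with none past the threshold in limma. Its level was 0.74 in combination library 2, against -0.11, -0.19 and 0.07 in the other combination libraries, and the median was 0.33 with both libraries 2 left out. Arg2, a mitochondrial arginase, was at 1170, 1555, 1591 and 1067 in the combination and 643, 602, 1047 and 1018 in controls (0.73, adjusted p = 0.221). Among Fc receptors, TREMs and C-type lectins, 28 tested with a median of 0.47, 8 were higher at an unadjusted p under 0.05 and none passed in limma. The median of that list was 0.22 with both libraries 2 left out. Fcgr1, the high-affinity IgG receptor and an interferon-gamma target, was at 376, 178, 88.2 and 159 in the combination and at 53.2, 46.3 and 114 in the 3 decoded controls (1.40, adjusted p = 0.166). Clec7a, the beta-glucan receptor Dectin-1, was at 2014, 4631, 1648 and 2421 against 1096, 1854, 1010 and 1431 in controls (0.92, adjusted p = 0.173). Both overlapped.

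Among 24 tested lineage transcription factors, 6 were higher at an unadjusted p under 0.05 and none passed in limma, with a median of 0.37. Bcl6, a repressor that binds many inflammatory genes, was at 532, 631, 578 and 542 in the combination and 313, 339, 252 and 368 in controls (0.85 ± 0.21 SE, adjusted p = 0.079). Mxd1, a MYC antagonist of mature granulocytes, was at 10336, 25347, 12946 and 12924 against 5866, 6843, 7079 and 7645 (1.08 ± 0.34 SE, adjusted p = 0.165). Rara, a retinoic acid receptor of granulocyte maturation, was at 470, 490, 358 and 367 against 203, 302, 270 and 288 in controls (0.66, adjusted p = 0.16). None of these 3 had overlapping groups, but all 3 were named for their small p, so this adds no support of its own. Ier5, an immediate early gene, was at 2351, 4352, 2509 and 1984 against 1096, 1274, 1534 and 1787 in controls (0.93, adjusted p = 0.13). The immediate early and heat shock list it belongs to had a median of 0.41 over 28 tested, and 0.05 without combination library 2 and cisplatin library 2. Medians were 0.16 for NADPH oxidase and antimicrobial effectors, 0.12 for glucocorticoid-responsive genes (0.17 with both libraries 2 left out) and 0.05 for oxidative stress and iron genes (0.08 with both left out), with no member of these lists past the threshold.

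**Figure D4:**
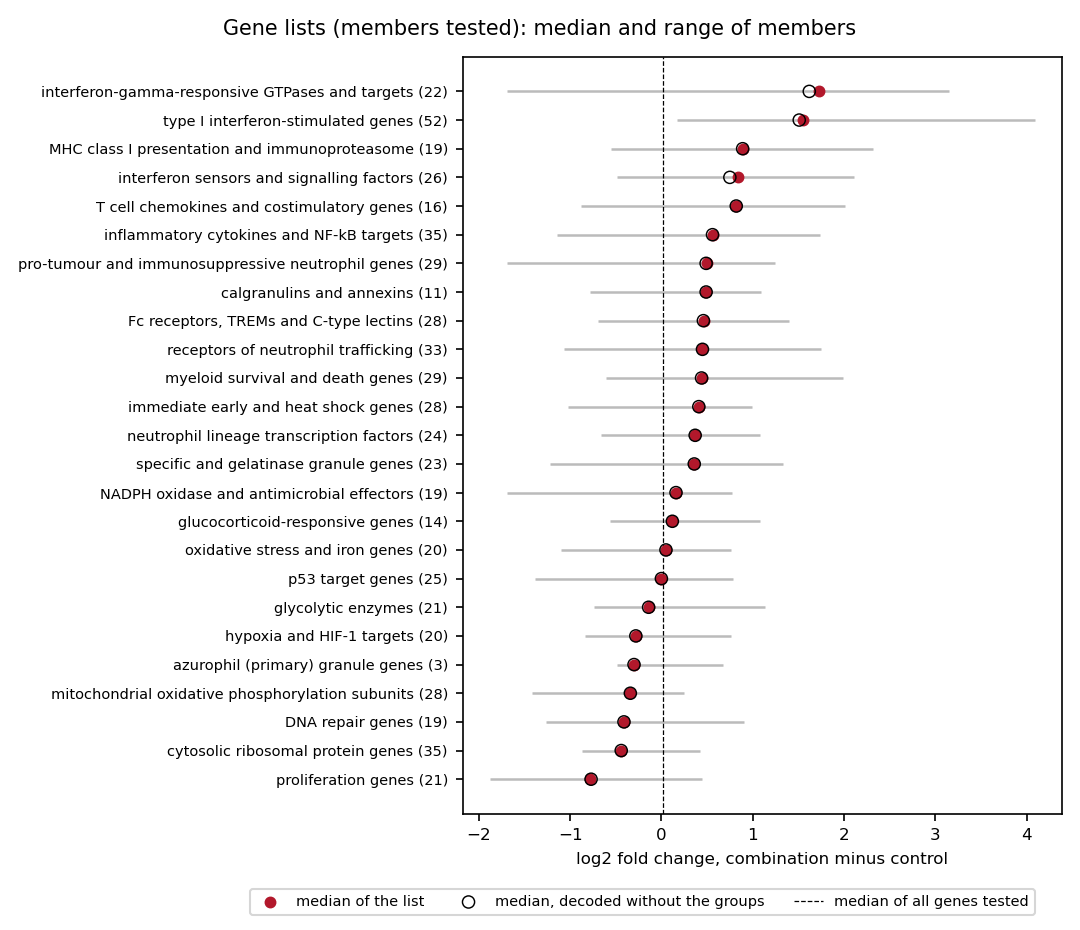
For each of 25 gene lists, the filled point is the median log2 fold change (combination minus control) of its tested members, the open circle the same when decimal points were decoded without the groups, and the grey line the range of members; the dashed line is the median of all genes tested, 0.02. The lists of interferon-gamma-responsive and of type I interferon-stimulated genes lie highest, at 1.73 and 1.55, and the proliferation list lowest, at -0.78.

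The p53 target genes, of interest because the combination contains a DNA-damaging drug, had a median near that of all genes. Of 25 tested, none passed in limma, and the median was -0.00. At an unadjusted p under 0.05, 2 were higher and 1 lower, beside 8.29% and 5.69% of all genes. Cdkn1a, the cell cycle inhibitor p21, was at 2434, 4710, 2711 and 2233 in the combination and 2536, 4510, 3456 and 2887 in controls (-0.18 ± 0.34 SE, adjusted p = 0.859). Mdm2, which degrades p53, was at 1336, 1667, 931 and 984 against 1041, 1084, 1203 and 1011 (0.14 ± 0.23 SE), and its sign turned under quantile scaling and without combination library 2. Ccng1, cyclin G1, was at 322, 463 and 384 in the 3 decoded combination libraries and 376, 435, 461 and 505 in controls (-0.20 ± 0.23 SE). Their groups overlapped throughout.

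Fas and Plk2 were higher at an unadjusted p under 0.05, and both had overlapping groups. Fas, the death receptor, was at 181, 165, 327 and 194 against 69.6, 102, 157 and 189 in controls (0.78, adjusted p = 0.312). Plk2, a polo-like kinase, was at 116, 101, 73.5 and 114 against 54.8, 53.2, 44.4 and 91.6 (0.75, adjusted p = 0.289). Trp53 was itself transcribed in these sorted cells, at 39.5, 23.2, 91.5 and 77.6 in the combination and 66.6, 85.7, 124 and 110 in controls (-0.88, adjusted p = 0.311).

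Replication genes had low values in these cells and mostly negative fold changes. Of 21 tested proliferation genes none passed in limma, and 0 were higher and 6 lower at an unadjusted p under 0.05. The median was -0.78, ranging from -1.03 to 0.45 over the other settings, and -0.60 with both libraries 2 left out. Mcm5 and Mcm6 encode subunits of the replication helicase. Mcm5 was at 4.16, 3.27 and 8.24 in the 3 decoded combination libraries and 19.3, 8.87, 14.8 and 20.4 in controls (-1.45, adjusted p = 0.189). Mcm6 was at 1, 3.87, 1 and 6.86 against 20.7, 10.3, 9.25 and 10.2 (-1.88, adjusted p = 0.172). Top2a, a topoisomerase of dividing cells, had 2 decoded combination libraries, at 7.75 and 12.4, against 43, 76.9, 16.7 and 14.8 in controls (-1.53, adjusted p = 0.293).

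Of 19 tested DNA repair genes none passed in limma, and 1 was higher and 2 lower at an unadjusted p under 0.05. The median was -0.41, or -0.30 with both libraries 2 left out. That median turned positive with only cells that need no model, at 0.25, and with a filter of at least 50 in at least 4 libraries, at 0.14. Lig1, the ligase of replication, was at 4.16, 5.81, 13.1 and 8.24 in the combination and 19.3, 17.7, 20.4 and 17.6 in controls (-1.26 ± 0.36 SE, adjusted p = 0.126). These values rest on few reads. The groups did not overlap, in a gene named for its small p.

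Most respiration and translation genes had small negative fold changes. Of 28 oxidative phosphorylation subunits 24 had a negative fold change, 6 of them at an unadjusted p under 0.05. Their median was -0.34, or -0.27 with both libraries 2 left out. Over all 9119 genes, 4744 had a positive fold change and 5.69% were lower at an unadjusted p under 0.05. Atp5b, of the ATP synthase, was at 883, 879, 1050 and 885 in the combination and 1468, 1327, 1421 and 1423 in controls (-0.61 ± 0.18 SE, adjusted p = 0.13). Uqcrc1, of complex III, was at 10.4, 9.68 and 24.7 in the 3 decoded combination libraries and 37, 32.5, 33.3 and 52.8 in controls (-1.42, adjusted p = 0.1). Neither had overlapping groups, but both were named for their small p, so this adds no support of its own. Of 35 cytosolic ribosomal protein genes 32 had a negative fold change, 7 at an unadjusted p under 0.05. Their median was -0.44, or -0.33 with both libraries 2 left out. Rpl3 was at 152, 62, 58.8 and 131 against 255, 174, 144 and 129 in controls (-0.87, adjusted p = 0.267), and Rpsa at 121, 73.6, 91.5 and 159 against 227, 158, 194 and 164 (-0.78, adjusted p = 0.234). No gene of either list passed in limma. Scaling by trimmed means moved the median of all genes by -0.10.

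Glycolytic enzymes had a median of -0.14 (-0.28 with both libraries 2 left out) and hypoxia targets -0.28, with 1 member of each at an unadjusted p under 0.05. These were 1 of 21 and 1 of 20 tested, both higher, beside 8.29% of all genes. In the glycolytic list Pfkfb4, which sets the pace of glycolysis, stood out, at 116, 165, 93.1 and 87.9 in the combination and 54.8, 44.3, 44.4 and 59.2 in controls (1.14 ± 0.28 SE, adjusted p = 0.08).

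**Figure D5:**
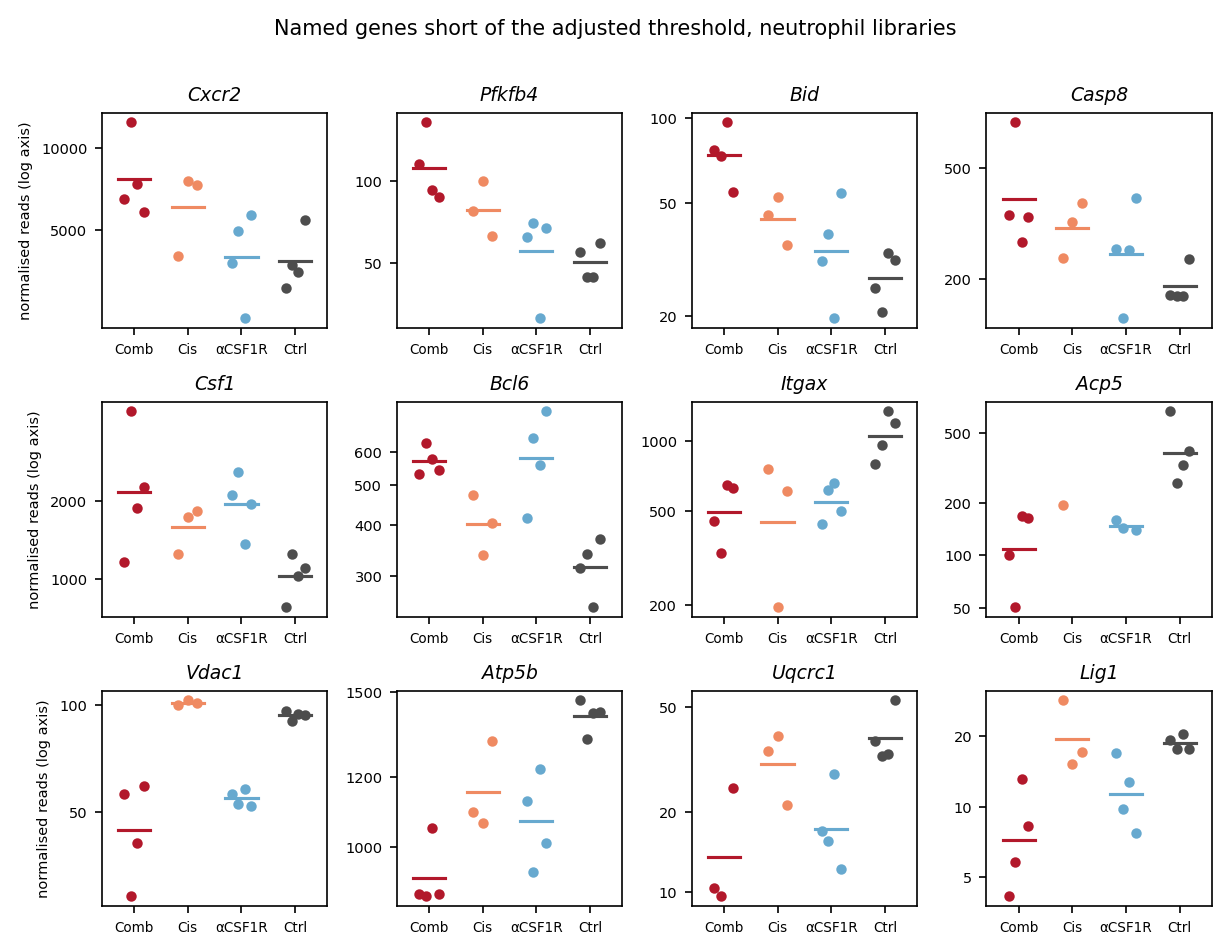
Values (normalised reads, log axis) of 12 named genes short of the adjusted threshold in each neutrophil library, in the order combination, cisplatin, anti-CSF-1R and control, with lines at means on the log2(value + 1) scale and no point where a value could not be decoded. Bid lies at 54.9 to 96.4 in the combination and 20.7 to 33.3 in controls, and Atp5b at 879 to 1050 and 1327 to 1468.

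Markers of other cells were summed with the most probable place for every cell. The sums were compared by an exact two-sided permutation test of the 4 combination and 4 control libraries, for which the smallest p is 0.0286. The places were chosen by the model that knows the groups, so these p-values are not strictly exact. No p was adjusted over the 12 marker lists. The 19 neutrophil markers with values summed to 55643 to 147469 in the combination and 39972 to 67514 in controls (exact p = 0.0571), with combination library 2 the highest. All 23 macrophage markers had values and summed to 2912 to 5484 in the combination and 3623 to 6234 in controls (exact p = 0.429). Of 22 tested macrophage markers, 10 had a positive and 12 a negative log2 fold change, with a median of -0.08. At an unadjusted p under 0.05 in limma, 2 were higher and 2 lower, beside 8.29% and 5.69% of all genes. C1qc, a complement chain of macrophages and 1 of the lower markers, was at 106, 57.2 and 139 in the 3 decoded combination libraries and 293, 154, 128 and 341 in controls (-1.15, adjusted p = 0.173). The macrophage sum was thus present in all 8 libraries, and its part in the lower values of Acp5, Ctsk, Fcrls and Itgax was not tested.

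The 6 dendritic cell markers with values summed to 105 to 251 in the combination and 58.3 to 101 in controls (exact p = 0.0286). That is the smallest p the test can give, unadjusted over the 12 marker lists. The 6 eosinophil markers summed to 184 to 830 and 210 to 438 (exact p = 0.314). Ear6, an eosinophil-associated ribonuclease, was at 31.2, 15.5 and 63.8 in the 3 decoded combination libraries and 1, 1, 1 and 11.1 in controls (3.37, adjusted p = 0.0919). Ear2 was at 6.24, 11.6, 14.7 and 19.9 against 1, 1, 1 and 14.8 (1.97, adjusted p = 0.232), and Alox15 at 64.4, 23.2 and 256 against 1, 1 and 62.9 in 3 decoded controls (3.55, adjusted p = 0.217). Ear genes are near-identical copies. Monocyte markers summed to 14524 to 48542 and 13945 to 25823 (exact p = 0.571). Mast cell and basophil markers summed to 79.7 to 227 and 57.4 to 174, fibroblast markers to 107 to 606 and 248 to 394, and endothelial markers to 52.3 to 127 and 97.6 to 116. T and NK cell markers summed to 6.9 to 56.2 and 28.8 to 45.8, B cell markers to 6.63 to 145 and 6 to 83.3, epithelial and tumour cell markers to 20.5 to 165 and 27.1 to 198, and erythroid and platelet markers to 4.27 to 25.4 and 2.48 to 8.87. The first range of each pair is the combination, and the exact p lay between 0.0571 and 0.686 for these lists. Whether any of these other cells contributed to the interferon values was not tested.

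The values of the single agents were set beside the combination; all comparisons with the control share the 4 control libraries. Irgm2 was at 428, 262 and 255 with cisplatin and 430, 299, 440 and 375 with anti-CSF-1R, between the combination and the controls. Against control it passed with either agent alone (1.96, adjusted p = 0.00475 for cisplatin; 2.28, adjusted p = 0.000173 for anti-CSF-1R). Against the single agents the combination was higher by 1.17 over cisplatin (adjusted p = 0.195) and by 0.85 over anti-CSF-1R (adjusted p = 0.366). Rsad2 was at 2373, 1838 and 2192 with cisplatin and 2434, 1574 and 5549 in the 3 decoded anti-CSF-1R libraries, again in between. Its log2 fold change was 1.47 over cisplatin (adjusted p = 0.671) and 1.09 over anti-CSF-1R (adjusted p = 0.689). The median of the 52 type I interferon-stimulated genes was 0.52 for cisplatin and 0.73 for anti-CSF-1R against control, beside 1.55 for the combination.

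Of 9119 genes 1 passed between the combination and cisplatin (0.011%) and none between the combination and anti-CSF-1R in limma (0%, with 789 at an unadjusted p under 0.05). The gene was Gbp4, at 106, 399 and 316 in the 3 decoded combination libraries and 20.9, 18.6 and 18.5 with cisplatin (3.55 ± 0.45 SE, adjusted p = 0.0248); only control library 4 could be decoded, at 42.6. Anp32e was at 106, 71.1 and 74.2 with cisplatin and 122, 99.7, 76.4 and 53.1 with anti-CSF-1R, above the combination in each library that could be decoded. Vdac1 was at 100, 103 and 101 with cisplatin, near the controls, and at 56.3, 52.8, 57.9 and 52 with anti-CSF-1R, near the combination. Bcl6 was at 472, 337 and 404 with cisplatin and 416, 649, 559 and 754 with anti-CSF-1R.

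Whether the combination differed from what its 2 agents add up to on the log2 scale was tested in the same model as combination minus cisplatin minus anti-CSF-1R plus control. No gene of 9119 passed in limma (0%), with 421 at an unadjusted p under 0.05. For Irgm2 the term was -1.11 (adjusted p = 0.986) and for Rsad2 -1.54 (adjusted p = 0.986). Gbp4 had 3.88 ± 0.79 (SE, adjusted p = 0.986). The median of type I interferon-stimulated genes was 0.33 on this term, beside -0.02 over all genes. Without control library 4 the count was 1.

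Macrophages sorted from the same treatment groups, with 2 combination and 4 control libraries, gave the nearest comparison in another cell type. Of 9015 genes tested, 1 differed in its combination effect between the cell types (0.0111%): Elmo1, a partner of DOCK proteins in phagocytosis and migration (chromosome 13, 20090596 to 20608353, plus strand). It was at 306, 413, 230 and 314 in combination neutrophils and 241, 282, 235 and 228 in control neutrophils (0.33, adjusted p = 0.457). In macrophages it was at 84.2 and 109 in the combination, below the controls at 308, 334, 278 and 225 (-1.56, adjusted p = 0.000839). The difference, neutrophils minus macrophages, was 1.89 ± 0.28 (SE, adjusted p = 0.00495).

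Irgm2, Rsad2 and Iqgap2 gave no call in that test. Irgm2 was at 151 in the only decoded combination macrophage library and at 33.4, 19.5, 22.7 and 61.9 in control macrophages (2.25, adjusted p = 0.0349), and its difference between the cell types was 0.88 (adjusted p = 0.834); with 1 library in that arm, both take its spread from the other groups. Rsad2 was at 1398 and 1884 in combination macrophages and at 111 in the only decoded control, with a difference of 0.23 (adjusted p = 0.986), and here the control arm has no spread of its own. Iqgap2 was at 88 and 106 against 39.4, 22.7, 12.4 and 18.4 in macrophages (2.13, adjusted p = 0.00225), with a difference of -0.77 (adjusted p = 0.772). The p53 targets Mdm2 and Ccng1, short of the threshold in neutrophils, passed in macrophages: Mdm2 was at 1346 and 2021 in the combination and 678, 372, 796 and 851 in controls (1.36, adjusted p = 0.0217), and Ccng1 at 453 and 517 against 257, 222, 269 and 271 (0.93, adjusted p = 0.035). Their differences between the cell types, -1.21 (adjusted p = 0.497) and -1.12 (adjusted p = 0.291), did not pass.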

How the data were processed

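Neutrophil and macrophage RNA, from cells sorted out of tumours by FACS, was sequenced on a HiSeq 1500 after cDNA synthesis from 10 ng of total RNA with NuGen kits, per the labels' protocols. The build mm10 and the tools DESeq2, Partek 6.6, TopHat2 2.0.11, CASAVA 1.8 and R 3.3.1 are listed in the submitters' processing notes, without their roles. The authors deposited a normalised signal per gene, which the values show to be read counts divided by a size factor per library (1 read was worth 0.6864 to 2.0784 in the combination and 0.9257 to 1.8502 in controls). Decimal points missing from this table were restored per cell: for each gene, a negative binomial model with the groups weighed the places that gave whole reads, and cells under a probability of 0.95 were left out. Of the cells kept in the 8 libraries, 0.194% are expected to be wrong. The weights of the group spreads in this model are fitted. A first version with preset weights was replaced after its calls had been seen, because it placed whole groups 10-fold away from the others. Data made with known answers were decoded with the fitted weights and without the groups, not with the preset weights.

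Genes with a value of at least 10 in at least 2 neutrophil libraries were tested with limma 3.58.1 (R 4.3.3; trended variance) on log2(value + 1) in all 15 neutrophil libraries and 4 groups, with Benjamini-Hochberg adjustment at 0.05 over all genes tested. The scripts were tested on simulated data. The differences between cell types were tested in the same way with the macrophage libraries added. Alternatives changed the decoding, pseudocount, filter, scaling, groups in the fit, weights and threshold, used limma-voom on decoded reads, and left out each library; preset weights and leaving out combination and cisplatin libraries 2 together were added after the data were seen. Named genes were up to 15 each way with the largest fold change among those past the threshold, decoded in 3 or more libraries of each group, without overlap, at a mean log2 level of at least 5 and with the same sign and an unadjusted p under 0.05 when decoded without the groups (where fewer than 5 qualified, those with the smallest p), the 4 smallest p of each list, and genes fixed by name; the text names part of them. The members and lists were chosen with earlier results of these data known. Genes named by the smallest p of a list tend to have groups apart, so a lack of overlap in them is no support of its own. Samples were grouped by their titles; replicate numbers follow sample order and pair nothing. Positions are from GENCODE vM21 on GRCm38, the assembly of mm10, and promoters from RefSeq on GRCm38.p6. Figures used matplotlib 3.10.9, and the decoding and summaries scipy 1.17.1, pandas 2.3.3 and numpy 2.4.6 under Python 3.11.15. Values carry no depth for a gene below 1 read, and sampling error of low genes enters only through the spread between libraries.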

Additional observations from a re-analysis of the deposited data

Results flagged for a closer look

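In 171 groups of 4 libraries looked at for a library far from the rest, chance alone would mark about 1 in 20. Combination library 2 stood far from the other 3 of its group for Il1b at 67729, for Mmp8 at 1607, for the level of oxidative stress and iron genes at -0.09, and on the first principal component at 37.1. Combination library 3 stood apart for Atp5b at 1050. Control library 4 stood apart from the other controls for Casp8 at 237, Ear6 at 11.1, Ear2 at 14.8 and the level of interferon-gamma-responsive GTPases and targets at 0.28. Control library 1 stood apart for Anp32e at 126, Mcm6 at 20.7 and the level of receptors of neutrophil trafficking at -0.35. The effect of the combination on Elmo1 differed between neutrophils and macrophages by a log2 difference of 1.89.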

How the results depend on the processing

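The count of 12 genes between the combination and the control antibody depended on most settings. It was 1 when decoded without the groups, 2 with only cells that need no model, 0 with the smallest whole-read place in limma (795 at an unadjusted p under 0.05), 39 with a pseudocount of 5, 1 without a filter, 30 with at least 50 in at least 4 libraries, 4 with quantile normalisation, 1 with trimmed mean scaling, 20 with only the 2 groups in the fit, 19 with array weights, 3 with limma-voom, 1 at a threshold of 0.01, 108 with preset weights and 1 with combination and cisplatin libraries 2 left out together. Leaving out 1 library gave 1 to 97 genes. Of the 12, Irgm2 passed in 23 of 24 alternatives. The other 11 each passed in 6 to 10 of 22 to 24, and in 1 to 4 of the 7 or 8 that left out 1 library; Anp32e passed least often, in 6 of 23 and 1 of 8. The count beyond the sum of the single agents was 0 to 1 with 1 library left out, and 1 only without control library 4. The count for the difference between neutrophils and macrophages, 1, was 2 with the most probable place, 9 with only cells that need no model, 5 with the smallest place, 10 with quantile normalisation, 3 with preset weights, 2 with libraries 2 left out together, and 1 to 2 with 1 library left out. The log2 fold change of Csf3r turned to -0.06 with quantile normalisation, and that of Mdm2 to -0.24 with quantile normalisation and to -0.02 without combination library 2 (also with cisplatin library 2 out), and was -0.02 to 0.26 with 1 library left out. The cause was not tested. Over the named genes and alternatives, 1550 of 1781 values kept direction and side of the threshold, 164 lost it, 63 gained it and 4 turned; of 600 list medians 572 stayed within their spread. No paired analysis was possible because the labels carry no replicate numbers. Genes of few reads and cells that could not be decoded limit what low genes can show.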
